A study of Mus musculus with 18 samples.

Results

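T cell transcripts were measured as a record of residual T lineage cells in B cell isolates from mice with ovalbumin (OVA) allergy. The 10 genes *Cd3d*, *Cd3e*, *Cd3g*, *Cd4*, *Cd8a*, *Cd28*, *Icos*, *Lat*, *Il7r*, and *Thy1* were taken by their symbols from the 55491 rows of the gene table, and each symbol had 1 row. Female BALB/cJ mice, aged 10 to 12 weeks in the labels, were all sensitized by i.p. injection of OVA (20 μg) in alum (1 mg), given on days 0 and 14. On days 28 and 42 they received i.v. 100 μL PBS, 100 μg soluble OVA, or 2.5 mg OVA NPs, which are polymer nanoparticles that carry OVA. B cells were taken from spleen and from Peyer's patches (PPs), the lymphoid follicles of the small intestine wall, on day 44. The 6 groups of tissue and treatment had 3 libraries each, for 18 in all, and all mice were sensitized, so no group shows the level in mice without allergy. The libraries are labelled as biological replicates, and the sources used here do not say whether each came from 1 mouse or whether equal numbers mark the same mouse.

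The isolation was a negative selection, in which cells that are not B cells are labelled with antibodies and held on a magnetic column while B cells flow through. Any T cells that pass leave their mRNA in the library. *Cd3d*, *Cd3e*, and *Cd3g* encode the CD3 chains that carry the signal of the T cell receptor, and *Lat* encodes the adaptor that links the receptor to downstream enzymes. *Cd4* and *Cd8a* encode the coreceptors that separate helper from cytotoxic T cells, *Cd28* and *Icos* encode costimulatory receptors, *Il7r* encodes the receptor chain for the survival cytokine IL-7, and *Thy1* encodes a surface glycoprotein of mouse T cells. Several of them are not limited to T cells. *Il7r*, *Icos*, and *Thy1* are also made by innate lymphoid cells, which lack antigen receptors and are common in the gut, and *Cd8a* and *Cd4* are also made by subsets of dendritic cells.

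Library totals ran from 14177253 to 30052297 counts, and the shallowest library was replicate 2 of the PP PBS group. Levels are given in CPM, a gene's counts per 1000000 counts of its library, and 3 counts corresponded to between 0.0998 and 0.212 CPM. These limits cover counting error only. The 7 B cell markers, among them *Cd79a*, *Cd22*, and *Pax5*, summed to between 7916 and 9394 CPM in the 9 spleen libraries and to between 5397 and 6813 CPM in the 9 PP libraries. The 10 T cell genes together held 159 to 215 counts in a spleen library and 703 to 2234 counts in a PP library. Per 1000 CPM of B cell markers, the T cell genes stood at 0.797 to 1.25 CPM in spleen and at 5.77 to 17.5 CPM in PPs, so the ranges of the tissues did not overlap. In bulk RNA, fewer T cells and less of these mRNAs per cell cannot be told apart.

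*Cd3g*, *Cd3d*, and *Cd3e* lie side by side on mouse chromosome 9 (GRCm38), at 44969572 to 44980431, 44981786 to 44987339, and 44998740 to 45009627. The first bases of *Cd3g* and *Cd3d* are 1355 bases apart and the genes point away from each other, so the stretches before both starts lie in the same gap. *Cd3e* overlaps an antisense gene, *Gm48719*, which held 0 to 3 counts in any library. *Thy1* is on the same chromosome at 44043384 to 44048579. *Cd28* (60716800 to 60773359) and *Icos* (60977927 to 61000320) are both on chromosome 1, 204568 bases apart, *Cd8a* (71373427 to 71379173) and *Cd4* (124864692 to 124888221) are on chromosome 6, *Lat* (126363824 to 126369570) is on chromosome 7, and *Il7r* (9505788 to 9530176) is on chromosome 15. A RefSeq promoter (GRCm38.p6) was matched for 6 of the 10 genes, and *Cd4*, *Cd28*, *Icos*, and *Thy1* were not matched. The 150 bases before the start are shown for *Cd3g*, *Cd3d*, and *Cd8a*, the genes whose window lies wholly outside the annotated gene, because *Cd8a* was close to absent from spleen and the CD3 pair shares a gap. They read 5′ to 3′ on the strand of the gene, and capitals mark the searched motifs.
Cd3g, chr9:44980432-44980581, minus strand: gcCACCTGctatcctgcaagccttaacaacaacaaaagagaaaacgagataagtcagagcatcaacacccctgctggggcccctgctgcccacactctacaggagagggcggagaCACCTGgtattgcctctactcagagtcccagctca
Cd3d, chr9:44981636-44981785, plus strand: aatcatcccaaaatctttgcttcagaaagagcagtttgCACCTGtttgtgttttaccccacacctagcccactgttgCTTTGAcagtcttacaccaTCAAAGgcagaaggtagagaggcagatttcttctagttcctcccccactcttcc
Cd8a, chr6:71373277-71373426, plus strand: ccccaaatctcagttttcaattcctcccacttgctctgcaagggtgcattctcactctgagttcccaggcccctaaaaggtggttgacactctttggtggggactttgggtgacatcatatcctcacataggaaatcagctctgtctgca
The letters searched on both strands were the E-box CACCTG, the ETS core AGGAAG, the RUNX core TGTGGT, and the TCF/LEF core CTTTGA. The E-box was found in 2 of the 6 member windows, those of *Cd3g* and *Cd3d*, and in 10.6% of all 32851 promoter windows of the same length. The ETS letters were in 3 member windows, those of *Cd3e*, *Lat*, and *Il7r*, against 19.7% of all windows. The TCF/LEF letters were in 1 member window, that of *Cd3d*, against 7.93%, and the RUNX letters in 0 against 8.40%. A match is a description of these letters only.

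In the spleen isolates, *Cd8a*, *Cd4*, *Icos*, and *Cd3d* were near the limit of detection, while *Lat* had 34 to 90 counts, *Il7r* 30 to 53 counts, and *Cd3g* 14 to 35 counts per library. The CD3 genes together stood at 2.14 ± 0.72 CPM in PBS, 2.46 ± 1.53 CPM in soluble OVA, and 1.95 ± 0.73 CPM in OVA NP libraries (SD, n = 3 each). *Cd8a* had 0, 2, and 3 counts in the PBS libraries, 2, 0, and 0 in the soluble OVA libraries, and 0, 1, and 0 in the OVA NP libraries. *Cd4* had 0 to 6 counts and *Icos* 0 to 7 counts in any spleen library, and *Cd3d* had 1 to 5. These 4 genes were too low to be tested between treatments in spleen.

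Compared per length of the annotated exons, the order of the genes in spleen was led by *Lat*, with a median of 1.19 CPM per kb and a lowest value of 0.709, which lay above all 9 values of the next gene, *Il7r*, with a median of 0.419. Below *Lat*, the ranges of all neighbours in the order overlapped, through *Cd3g*, *Thy1*, *Cd3e*, *Cd28*, *Cd3d*, *Icos*, *Cd4*, and *Cd8a*, whose median was 0. In PPs the order was led by *Il7r*, with 3.67 to 11.2 CPM per kb and a median of 7.30, above *Lat* in all 9 libraries with no overlap of the ranges. The medians of the other PP genes ran from 1.62 CPM per kb for *Lat* through *Thy1*, *Cd3g*, *Icos*, *Cd3e*, *Cd8a*, *Cd4*, and *Cd28* to 0.348 for *Cd3d*, and the ranges of neighbours overlapped. *Il7r* supplied 48.1% to 57.5% of the members' summed CPM in the PP libraries and 17.1% to 27.7% in the spleen libraries. Without *Il7r*, the sum was 14.0 to 54.3 CPM in PPs and 5.18 to 9.25 CPM in spleen.

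**Figure D1:**
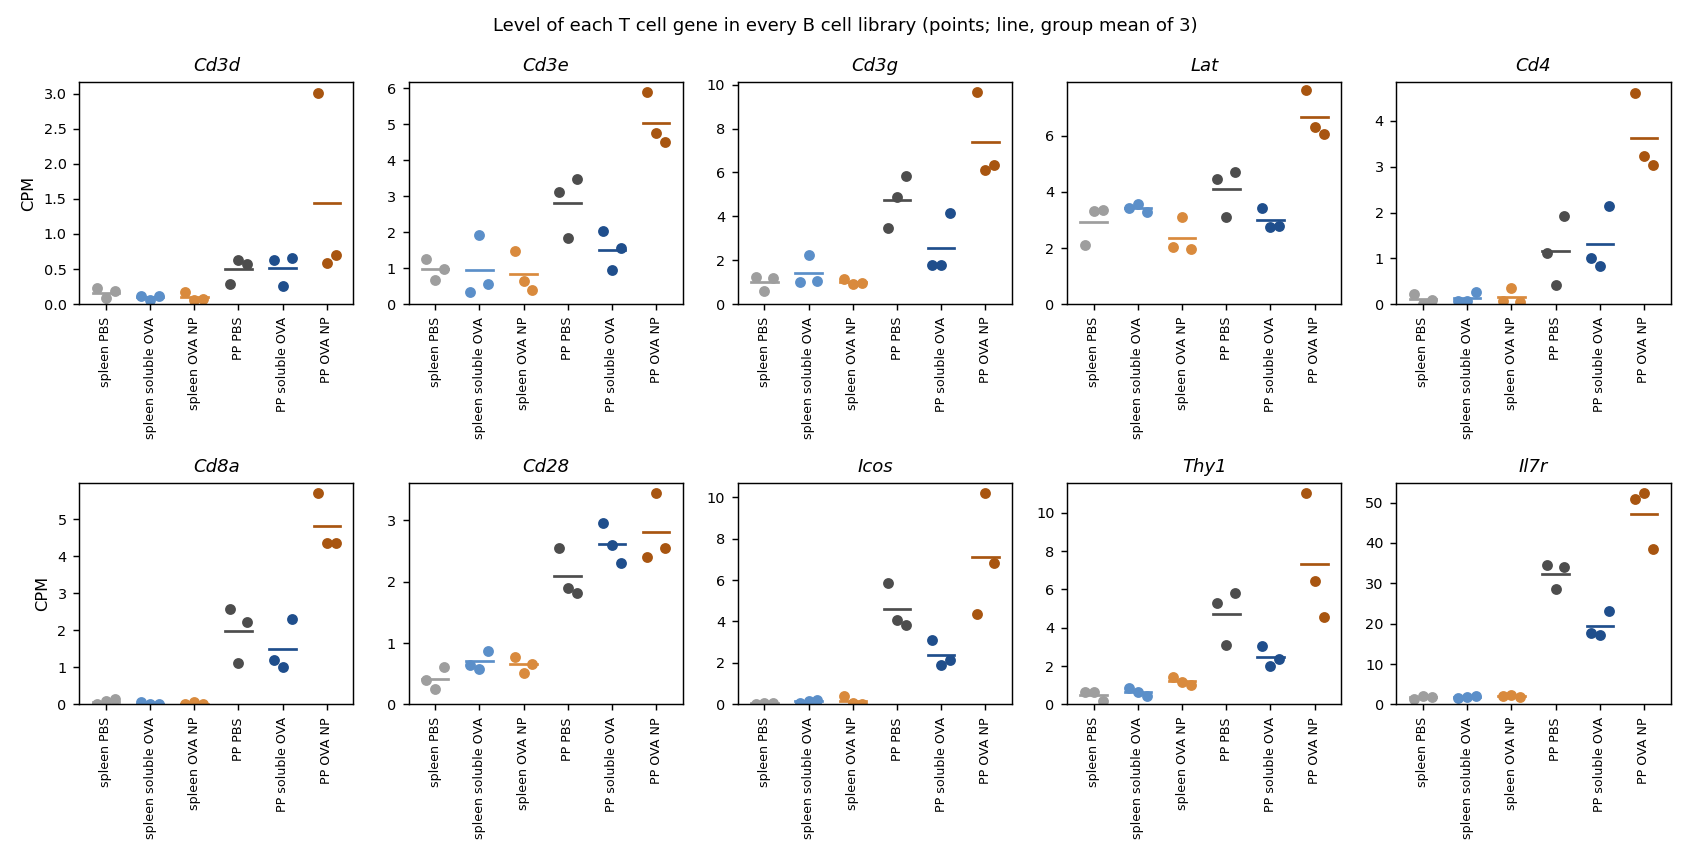
Level in CPM (y axis, linear from 0) of each T cell gene in all 18 B cell libraries (points), by tissue and treatment (x axis), with the mean of 3 libraries as a line. *Cd4*, *Cd8a*, and *Icos* lay near 0 in spleen, and all genes had their highest mean in the PP libraries of OVA NP–treated mice.

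The summed level of the members was higher in PP than in spleen isolates under every treatment, but not that of each gene, and *Lat* differed least. In PBS-treated mice, *Il7r* was at 34.6, 28.5, and 34.0 CPM in the PP libraries and at 1.47, 2.21, and 1.95 CPM in the spleen libraries. The groups were far apart (log2 fold change 4.18, SE 0.16, adjusted p = 2.66e-07, edgeR). *Icos* was at 5.86, 4.09, and 3.85 CPM in PPs, and its spleen libraries held 0, 2, and 2 counts. Its 275 PP counts against 4 spleen counts gave a ratio of 80.7 in CPM, with an exact 95% counting interval of 31.2 to 298. *Thy1* rose by 3.28 (SE 0.45), *Cd28* by 2.40 (SE 0.43), *Cd3g* by 2.29 (SE 0.36), and *Cd3e* by 1.63 (SE 0.38) on the log2 scale. *Lat* was at 4.47, 3.10, and 4.73 CPM in PPs and 2.10, 3.34, and 3.35 CPM in spleen, so its groups overlapped and it was not called (adjusted p = 0.121). A gene is called where its adjusted p is under 0.05 and its log2 fold change is beyond 0.25 in either direction. In all, 7 of 8 tested members were called higher in PPs, where 25.5% of all tested genes were. Members as low in spleen as *Cd8a* (5 counts in all) and *Icos* (4) entered the test only through the PP libraries, where they are high. Their place among the called was thus largely set by the filter on low counts.

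*Cd8a* was close to absent from the spleen isolates and present in every PP library. In the OVA NP groups it was at 5.70, 4.35, and 4.36 CPM in PPs against 1 count in all 3 spleen libraries, a ratio of 286 with a counting interval of 50.9 to 11313. In soluble OVA libraries 119 PP counts stood against 2 spleen counts, a ratio of 44.1 with an interval of 12.0 to 369, and in PBS libraries 122 stood against 5, a ratio of 28.6 with an interval of 11.9 to 89.8. The 3 intervals overlap. *Cd4* gave ratios of 11.7 (5.41 to 30.3) in PBS, 9.64 (4.72 to 22.9) in soluble OVA, and 26.9 (13.4 to 63.1) in OVA NP libraries. These intervals cover counting error and not the spread between libraries.

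Between the OVA NP groups of both tissues, all 10 members were tested and all 10 were called higher in PPs, against 22.0% of all tested genes. *Cd8a*, *Cd3d*, *Cd4*, and *Icos*, with 1, 6, 8, and 9 spleen counts in all, entered the test only through the PP libraries. Their calls were thus largely set by the filter on low counts. The log2 fold changes ran from 1.60 (SE 0.24) for *Lat* to 5.58 (SE 0.65) for *Icos*, leaving aside *Cd8a*, whose fitted value rests on a single spleen count. *Il7r* rose by 4.59 (SE 0.16, adjusted p = 3.06e-07, edgeR). In soluble OVA–treated mice 6 of 9 tested members were called higher, against 26.7% of all tested genes. Among these, *Cd8a*, *Cd4*, and *Icos*, with 2, 8, and 9 spleen counts in all, again entered the test only through the PP libraries. *Cd3e*, *Cd3g*, and *Lat* were not called there. *Lat* was at 3.43, 2.74, and 2.80 CPM in PPs and at 3.44, 3.57, and 3.30 CPM in spleen, with a log2 fold change of -0.13 (SE 0.24). *Cd3g* was at 1.80, 1.77, and 4.16 CPM in PPs and 0.994, 2.23, and 1.04 CPM in spleen, and the groups overlapped. The median log2 fold change of the tested members was 2.84, 1.99, and 3.39 under PBS, soluble OVA, and OVA NPs, beside medians within 0.01 of 0 over all tested genes. With at least 10 counts demanded in every library, only 3, 1, and 5 members were called, since low genes then drop out of the test. The members that reached it were *Cd3g*, *Il7r*, and *Lat* under each treatment, *Cd3e* also with PBS and OVA NPs, and *Thy1* also with OVA NPs. Of all genes tested in this way, 2715 of 12539, 3280 of 12577, and 2187 of 12722 were called higher. PPs were digested with collagenase and spleens were treated with red cell lysis buffer, so tissue and preparation cannot be told apart.

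**Figure D2:**
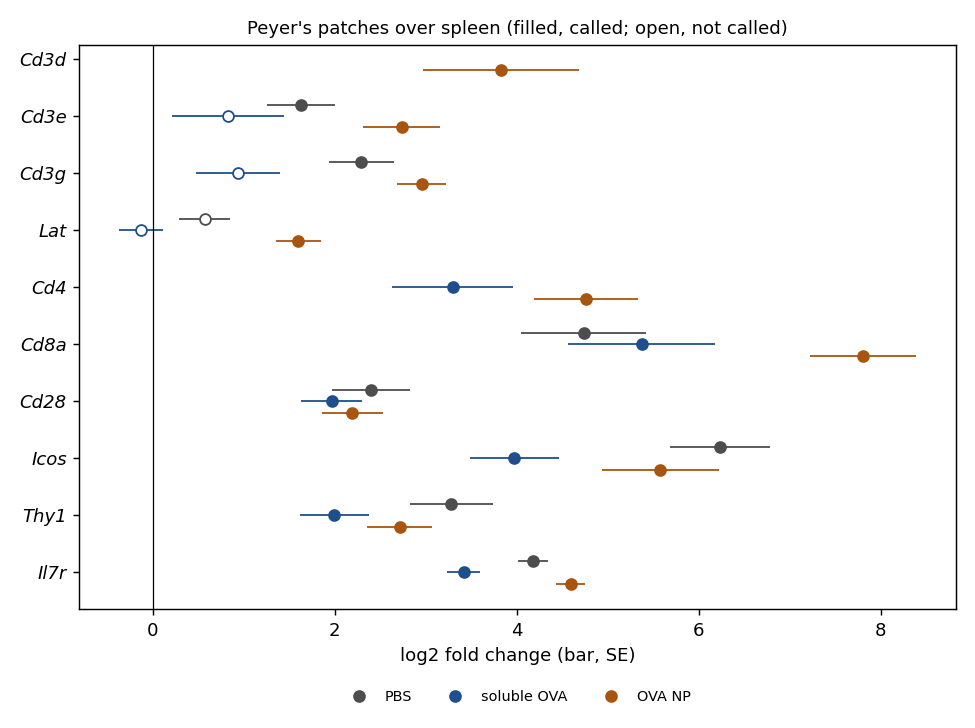
Log2 fold change of PP over spleen libraries (x axis, bars are SE) for each member (y axis) under each treatment, with filled points for called genes. Members too low to be tested have no point, the *Cd8a* points rest on 1 to 5 spleen counts in all, and *Lat* sits nearest to 0 in each treatment.

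Markers of other cells also differed between the tissues. The summed level of 7 epithelial genes, led by *Vil1*, *Krt8*, and *Lgals4*, was 205 to 940 CPM in PP libraries and 14.7 to 17.5 CPM in spleen libraries. The 5 stromal genes, led by *Col3a1*, *Col1a2*, and *Pdgfrb*, summed to 10.4 to 83.8 CPM in PPs and 2.23 to 4.66 CPM in spleen. Neutrophil genes went the other way, with 1.48 to 19.6 CPM in PPs and 29.7 to 157 CPM in spleen over 8 genes led by *S100a9*, *Ngp*, and *S100a8*. The highest PP value was that of replicate 3 of OVA NP alone. Erythroid and platelet genes were at 1.8 to 8.0 CPM in PPs and 10.1 to 31.2 CPM in spleen, among them *Itga2b* and *Hba-a1*. Dendritic genes summed to 27.5 to 63.4 CPM in PPs and 12.1 to 26.6 CPM in spleen. Germinal center B genes summed to 662 to 1581 against 103 to 432 CPM, and plasma cell genes to 843 to 1051 against 384 to 631 CPM. The monocyte and macrophage sums overlapped, with 104 to 245 against 63.7 to 282 CPM. The part of all these markers in the T cell gene values was not tested.

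No member of the spleen isolates was called between treatments, and 4 of the 10 were too low to be tested. For OVA NP against PBS, 0 of 6 tested members were called by edgeR or DESeq2, where edgeR called 15.0% of all tested genes. An unadjusted p under 0.05 (edgeR) was found for 1 member and for 4652 of all 14200 tested genes. That member was *Thy1*, at 1.43, 1.15, and 1.02 CPM in OVA NP libraries and 0.670, 0.668, and 0.186 CPM in PBS libraries. Its groups did not overlap, as in the 16.8% of all tested genes whose OVA NP libraries all lay above the PBS libraries, and its log2 fold change was 1.23 (SE 0.45, adjusted p = 0.0676, edgeR). For soluble OVA against PBS, 0 of 6 were called by either tool, where edgeR called 17.2% of all genes. At an unadjusted p under 0.05 (edgeR) there were 0 members and 4707 of all 14128 tested genes. Between OVA NP and soluble OVA libraries, 0 of 6 were called by either tool, where edgeR called 0.238% of all genes. Here 1 member had an unadjusted p under 0.05 (edgeR), as did 1199 of all 13840 tested genes. *Thy1* was at 0.841, 0.638, and 0.439 CPM in the soluble OVA libraries, all below the OVA NP libraries (log2 fold change 0.86, SE 0.40, adjusted p = 0.577, edgeR), where 7.25% of all tested genes had all OVA NP libraries above. *Lat* was at 2.02, 3.11, and 1.96 CPM with OVA NPs and 3.44, 3.57, and 3.30 CPM with soluble OVA. All its OVA NP libraries lay below (log2 fold change -0.55, SE 0.25, adjusted p = 0.564, edgeR), where 7.77% of all tested genes did. The log2 fold changes of the 6 members spanned -0.55 to 1.23 over these comparisons, and the SEs lay between 0.23 and 0.68. *Cd3e* varied widely within groups, at 0.344, 1.91, and 0.549 CPM in the soluble OVA libraries.

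In PPs, OVA NP–treated mice had the highest T cell transcripts and soluble OVA–treated mice the lowest. The members summed to 77.5 to 105 CPM in OVA NP, 49.6 to 64.3 CPM in PBS, and 31.1 to 43.6 CPM in soluble OVA libraries, and the 3 ranges did not overlap. The CD3 genes alone summed to 13.8 ± 4.07, 8.03 ± 1.61, and 4.60 ± 1.71 CPM in the same order (SD, n = 3 each). The comparisons below share these libraries, so a high or low group enters more than 1 of them.

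Between OVA NP and soluble OVA PP libraries, 8 of 10 members were called higher with OVA NPs, where 13.8% of all tested genes were. Each of these 8 genes had all OVA NP libraries above all soluble OVA libraries, which held for 24.9% of all tested genes. The median log2 fold change of the members was 1.48 and that of all tested genes 0.03.

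Among the receptor genes, *Cd3e* was at 5.89, 4.75, and 4.5 CPM with OVA NPs and 2.03, 0.940, and 1.57 CPM with soluble OVA. The lowest OVA NP library was above the highest soluble OVA library, and the log2 fold change was 1.70 (SE 0.33, adjusted p = 0.00490, edgeR). *Cd3g* was at 9.65, 6.10, and 6.35 CPM against 1.80, 1.77, and 4.16 CPM, and rose by 1.51 (SE 0.36, adjusted p = 0.0128). *Lat*, the adaptor, rose by 1.13 (SE 0.22, adjusted p = 0.00524), from 2.74 to 3.43 CPM across the soluble OVA libraries to 6.08 to 7.63 CPM across the OVA NP libraries. *Cd3d* was not called (log2 fold change 1.42, SE 0.70, adjusted p = 0.160). It held 64, 13, and 16 counts in the OVA NP libraries and 19, 7, and 16 counts in the soluble OVA libraries, so that its high mean rested on replicate 1 of OVA NP.

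Both coreceptors were higher with OVA NPs. *Cd8a* was at 5.70, 4.35, and 4.36 CPM against 1.2, 1.01, and 2.31 CPM, with no overlap and a log2 fold change of 1.66 (SE 0.34, adjusted p = 0.00634, edgeR). *Cd4* was at 4.61, 3.23, and 3.04 CPM against 0.998, 0.827, and 2.14 CPM, with a log2 fold change of 1.45 (SE 0.39, adjusted p = 0.0213). The *Cd4* call was lost when any of 4 libraries was left out, replicates 1 and 2 of OVA NP and replicates 1 and 2 of soluble OVA, and also in the fit of all 18 libraries and with replicate number as a block, and its adjusted p reached 0.0774 over the alternatives.

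The costimulatory receptors parted. *Icos* was at 4.38, 10.2, and 6.83 CPM with OVA NPs and 3.09, 1.88, and 2.14 CPM with soluble OVA, and rose by 1.56 (SE 0.36, adjusted p = 0.0110, edgeR). Its call was lost without replicate 3 of soluble OVA and with replicate number as a block, and its adjusted p reached 0.0658. *Cd28* was at 2.40, 3.45, and 2.56 CPM against 2.96, 2.59, and 2.31 CPM, and these groups overlapped (log2 fold change 0.08, SE 0.28, adjusted p = 0.881). The difference between the changes of *Icos* and *Cd28* was not tested.

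*Il7r*, the most abundant member, was at 50.9, 52.4, and 38.6 CPM with OVA NPs and 17.8, 17.1, and 23.1 CPM with soluble OVA. It rose by 1.28 (SE 0.15, adjusted p = 6.44e-04, edgeR), the smallest adjusted p of the members. *Thy1* was at 11.0, 6.46, and 4.54 CPM against 3.06, 1.99, and 2.39 CPM, and rose by 1.53 (SE 0.35, adjusted p = 0.0103). *Thy1* and *Il7r* were called in each fit that left out a library.

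Between OVA NP and PBS PP libraries, 0 of 10 members were called by edgeR and 1, *Il7r*, by DESeq2. In this comparison edgeR called 0% of all 15798 tested genes, with 1573 of them at an unadjusted p under 0.05, and DESeq2 called 150. All 10 members had a positive log2 fold change, from 0.43 for *Cd28* to 1.64 for *Cd4*, with a median of 0.68 beside -0.01 over all genes. In 6 members, the OVA NP libraries all lay above the PBS libraries, which held for 6.85% of all tested genes. *Cd8a* was at 5.70, 4.35, and 4.36 CPM with OVA NPs and 2.58, 1.13, and 2.23 CPM with PBS (log2 fold change 1.27, SE 0.32, adjusted p = 0.283, edgeR). *Il7r* was at 50.9, 52.4, and 38.6 CPM against 34.6, 28.5, and 34.0 CPM (log2 fold change 0.56, SE 0.13, adjusted p = 0.259). The unadjusted p was under 0.05 in 6 members, *Cd3e*, *Cd3g*, *Cd4*, *Cd8a*, *Il7r*, and *Lat*. Without a filter on low counts, edgeR called 3 members, *Cd4*, *Cd8a*, and *Il7r*, and 146 genes in all.

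Between soluble OVA and PBS PP libraries, 2 of 10 members were called, both lower with soluble OVA, where 13.9% of all tested genes were. *Il7r* was at 17.8, 17.1, and 23.1 CPM with soluble OVA and 34.6, 28.5, and 34.0 CPM with PBS, and fell by 0.73 on the log2 scale (SE 0.13, adjusted p = 0.00313, edgeR). *Icos* was at 3.09, 1.88, and 2.14 CPM against 5.86, 4.09, and 3.85 CPM, and fell by 0.94 (SE 0.30, adjusted p = 0.0464). The *Icos* call was lost in 5 of 6 fits that left out a library, all but the one without replicate 1 of soluble OVA, with 1 to 3 members called over these fits. In 3 members, the soluble OVA libraries all lay below the PBS libraries, against 25.1% of all tested genes. *Cd28*, *Cd3d*, and *Cd4* had positive log2 fold changes of 0.34, 0.11, and 0.19, and none of them was called. *Cd4* was at 0.998, 0.827, and 2.14 CPM with soluble OVA and at 1.11, 0.423, and 1.92 CPM with PBS, so its groups overlapped.

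**Figure D3:**
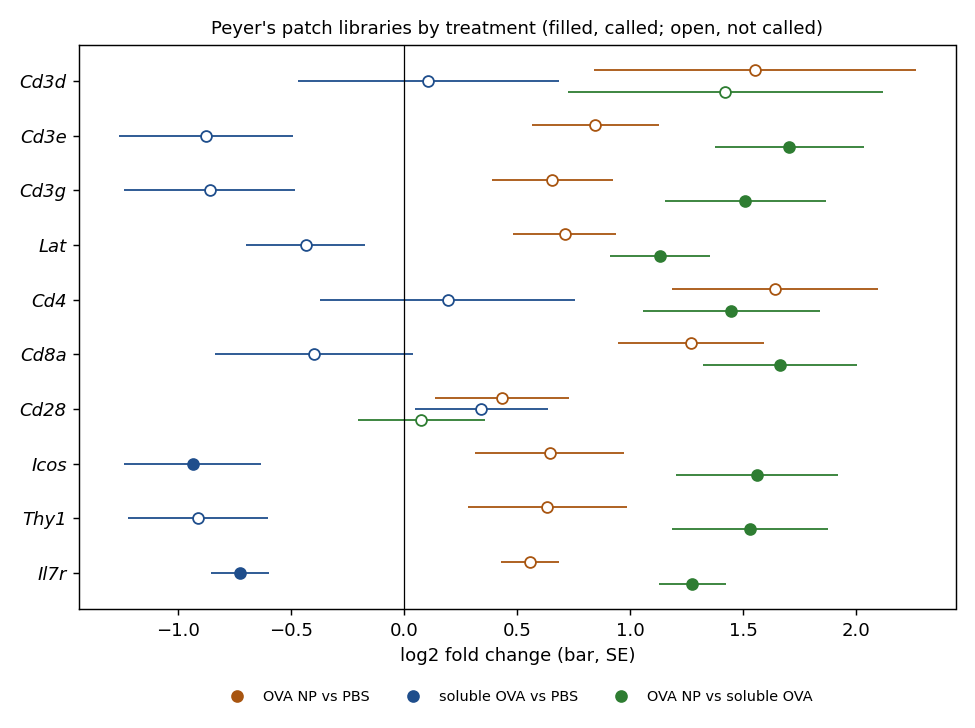
Log2 fold change (x axis, bars are SE) of each member (y axis) in the 3 comparisons of PP libraries, with filled points for called genes. For OVA NP against soluble OVA, 8 filled points lie between 1.13 and 1.70 and the open point of *Cd28* lies at 0.08, and no point is filled for OVA NP against PBS.

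The treatment effects of the tissues were compared directly by an interaction term fitted to the 12 libraries of 4 groups. With OVA NPs against PBS, 0 of 10 members were called by edgeR or DESeq2, where edgeR called 4.42% of all genes. An unadjusted p under 0.05 (edgeR) was found for 2 members and for 3106 of all 16619 tested genes. For soluble OVA against PBS, 0 of 10 were called by either tool, where edgeR called 6.84% of all genes. Here 3 members had an unadjusted p under 0.05 (edgeR), as did 3468 of all 16541 tested genes. The smallest adjusted p was that of *Il7r* for soluble OVA (0.0772, edgeR), whose change was 0.75 lower in PPs than in spleen on the log2 scale (-0.75, SE 0.24). A difference between tissues in the treatment effect was therefore not shown for any member, at spleen levels of 0 to 7 counts per library for *Cd8a*, *Cd4*, and *Icos*.

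Other genes of the T cell receptor pathway were higher with OVA NPs than with soluble OVA in PPs. Of 20 such genes, 19 were tested, 14 were called higher and 1, *Lck*, lower (median log2 fold change 1.2). Of all tested genes, 13.8% were called higher and 16.3% lower. *Lck* stood at 106 to 164 CPM in the PP libraries, and which cells made it was not tested. *Cd247*, the zeta chain of the receptor complex, rose by 1.51 (SE 0.31, adjusted p = 0.00663, edgeR). *Trbc1* and *Trbc2*, the constant regions of the receptor β chain, rose by 1.49 (SE 0.23) and 1.28 (SE 0.32). The *Trbc2* call was lost without replicate 2 of OVA NP, without replicate 2 or 3 of soluble OVA, and with the block (adjusted p up to 0.0652, edgeR). *Trac*, the α chain constant region, held 18, 13, and 13 counts against 11, 6, and 7 and was not called (log2 fold change 1.14, SE 0.50, adjusted p = 0.115). The adaptor gene *Fyb* rose by 1.2 (SE 0.13).

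The T lineage transcription factors, 6 genes, had 4 called higher and 1, *Tox*, lower, with a median of 1.25. Of 9 innate lymphoid genes, 8 were tested and 5 were called higher, with a median of 1.3, among them the receptor genes *Kit* (1.03, SE 0.11) and *Il17rb* (1.42, SE 0.19). Of 10 cytotoxic T and NK genes, 9 were tested and 4 were called higher. Of 8 regulatory T genes, 7 were tested, with 4 higher and 1 lower, *Lrrc32* (-2.04, SE 0.26, adjusted p = 0.00125, edgeR), which encodes the surface receptor that holds latent TGF-β. Of 8 follicular helper genes, 4 were tested, 1 higher and 1 lower. These counts stand beside 13.8% of all tested genes called higher and 16.3% called lower. For OVA NP against PBS in PPs edgeR called 0 of all 15798 tested genes, and so none in these 6 lists, whose medians ran from 0.22 to 0.59.

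Several innate lymphoid and cytotoxic genes were also higher in the PP isolates. Of tested innate lymphoid genes, 6 of 7, 5 of 6, and 6 of 7 were called higher with PBS, soluble OVA, and OVA NPs. For cytotoxic T and NK genes these counts were 4, 5, and 6 of 9. Of all tested genes, 25.5%, 26.7%, and 22.0% were called higher. Of the 9 innate lymphoid genes, 3, 4, and 2 were at 0 in all spleen libraries of these groups. Genes that low enter the test only through the PP libraries. With soluble OVA, 1 innate lymphoid and 2 cytotoxic genes were called lower, and with PBS and OVA NPs 0 were. *Il1r1*, an IL-1 receptor gene, was higher in PPs than in spleen by 4.47 (SE 0.23) on the log2 scale with PBS, and *Il17rb*, an IL-25 receptor gene, by 4.93 (SE 0.27) with OVA NPs. *Gzma*, a granzyme gene of cytotoxic lymphocytes, was higher by 6.26 (SE 0.25) with OVA NPs. *Trbc1* was higher in PPs by 3.01 (SE 0.47), 2.76 (SE 0.39), and 4.58 (SE 0.31) under PBS, soluble OVA, and OVA NPs. Of the receptor and signaling genes, 11 of 16, 9 of 16, and 15 of 19 tested were called higher in the same order. Called lower were 3, 3, and 2, among them *Cd2* with PBS (-1.14, SE 0.07, adjusted p = 1.35e-06, edgeR). The summed innate lymphoid level was 26.5 to 38.2 CPM in spleen and 45.6 to 127 CPM in PPs. *Kit*, a growth factor receptor gene that is also used by mast cells and progenitors, stood at 25.3 to 36.9 CPM in the spleen libraries, and so made up most of that sum.

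Markers of myeloid and dendritic cells and of germinal center B cells also differed between OVA NP and soluble OVA in the same PP libraries, where 13.8% of all tested genes were called higher and 16.3% lower. Of 7 dendritic genes, led by *Itgax*, *Zbtb46*, and *Siglech*, 6 were called higher with OVA NPs than with soluble OVA, and their sum was 61.0 to 63.4 CPM with OVA NPs, 37.1 to 59.4 with PBS, and 27.5 to 32.7 with soluble OVA. Of 9 monocyte and macrophage genes, led by *Lyz2*, *Csf1r*, and *Ly6c2*, 8 were tested and 5 were called higher, with sums of 166 to 245, 126 to 175, and 104 to 115 CPM. The innate lymphoid genes summed to 95.2 to 127, 66.0 to 95.8, and 45.6 to 49.9 CPM. No gene of these 3 lists was at 0 in all libraries of a PP group. Of 8 neutrophil genes, 2 were tested and both were called higher. The 8 genes summed to 3.95, 3.99, and 19.6 CPM with OVA NPs, the last in replicate 3 alone. The sums were 1.69 to 3.43 with PBS and 1.48 to 1.63 with soluble OVA, and 3 of the 8 genes were at 0 in each of these groups. Of 10 erythroid and platelet genes, 2 were tested and 1 was called higher, with sums of 5.29 to 8.0, 3.36 to 3.95, and 1.8 to 3.71 CPM, and 2, 2, and 5 genes at 0. Of 7 germinal center B genes, among them *Bcl6* and *S1pr2*, 6 were called lower, with sums of 662 to 945, 924 to 1071, and 1535 to 1581 CPM. Of 7 B cell genes, 0 were called by edgeR, and epithelial sums overlapped, with 441 to 940, 205 to 700, and 234 to 911 CPM. Plasma cell genes, led by *Jchain*, *Irf4*, and *Xbp1*, had 0 of 5 tested members called. The part of these markers in the T cell gene values was not tested.

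**Figure D4:**
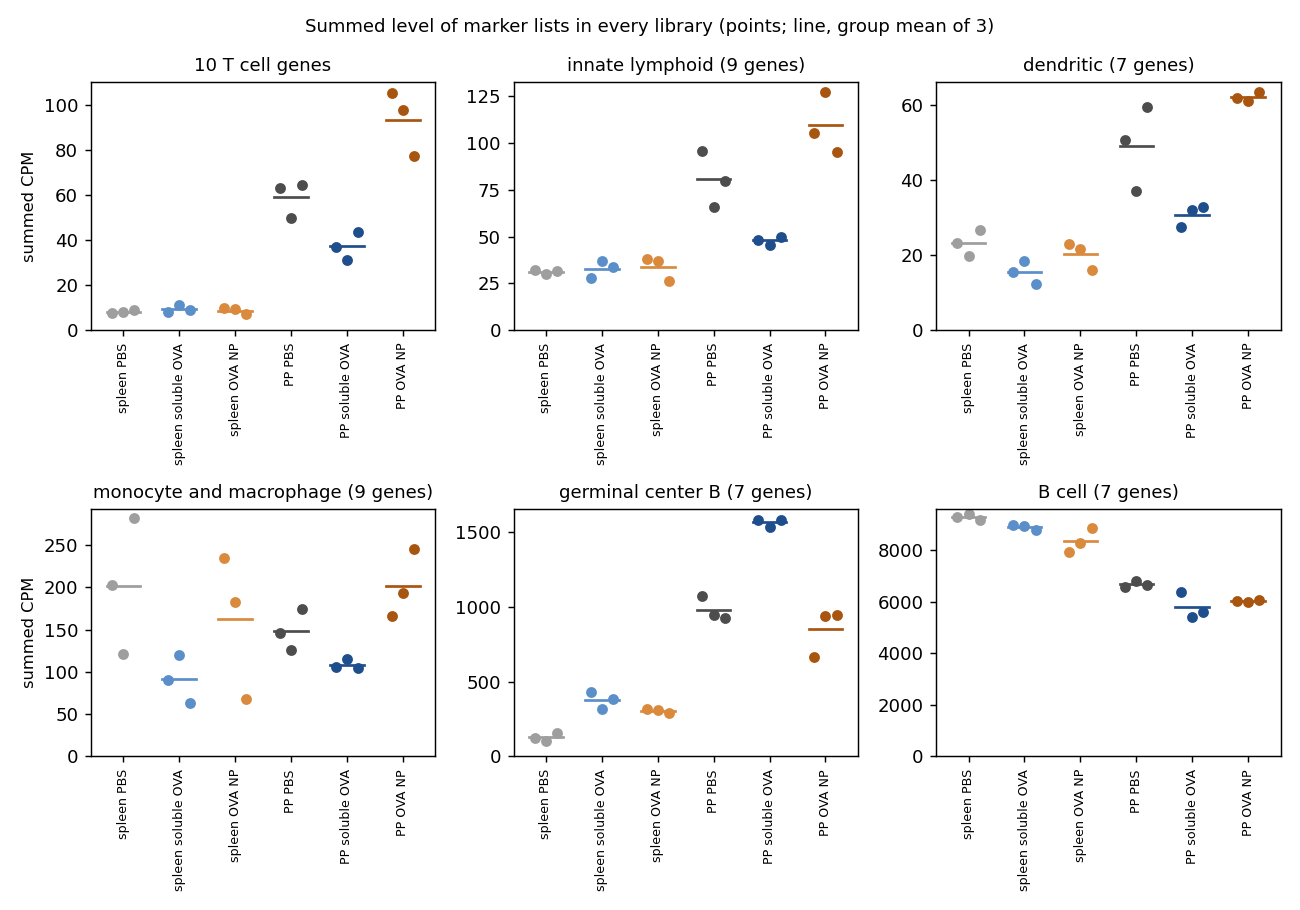
Summed level in CPM (y axis, linear from 0) of the 10 T cell genes and of 5 other marker lists in all 18 libraries (points), by tissue and treatment (x axis), with the mean of 3 as a line. In PPs the T cell, innate lymphoid, dendritic, and myeloid sums were lowest with soluble OVA, where the germinal center sums were highest.

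Within groups, the members varied together only loosely. The deviation of each gene's log2 CPM from its group mean was compared over the 18 libraries with the mean deviation of the other 9 members, as a description without a test. Pearson's r was highest for *Cd3e* (r = 0.50, Spearman's rho = 0.58, r = 0.39 without the 2 farthest libraries) and lowest for *Cd28* (r = -0.04). *Icos* stood at r = 0.01. The 12 genes most like the mean of the members, of 11997 compared, were *Ficd*, *Trim62*, *Vsir*, *Wfikkn1*, *Arap3*, *Ly6c1*, *Cdh5*, *Ms4a2*, *Nfam1*, *Axin2*, *Fcer1g*, and *Tnf*, with r from 0.79 to 0.89. For *Ficd*, r was 0.89, rho was 0.78, and r was 0.83 without the 2 farthest libraries. All these points share libraries and their depth, and none of the 12 genes was on a T cell list.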

How the data were processed

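Bulk RNA-Seq of B cells from 18 libraries was used. Per the submitters' notes, Cutadapt 2.3, STAR 2.7.8a (GRCm38), and RSEM 1.3.3 were used. The authors deposited RSEM's expected counts per gene, which are not normalized. All were whole numbers (0 exceptions) and were used as deposited. Reads that fit several genes are shared out by RSEM. Library totals were 14177253 to 30052297 counts.

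Each comparison used its 6 libraries in edgeR 4.0.16 (R 4.3.3), with filterByExpr at its defaults (minimum count 10, minimum total 15), TMM, the robust quasi-likelihood F test, and Benjamini-Hochberg adjustment over all tested genes. SEs are the absolute log2 fold change over the root of F. Calls needed an adjusted p under 0.05 and, for comparisons of 2 groups, an absolute log2 fold change above 0.25. Gene positions and exon lengths came from GENCODE for GRCm38, whose release differs from the authors' annotation. CPM used library totals. DESeq2 1.42.0, other filters, size factors, designs, and leaving out libraries were the alternatives. The steps were tested on simulated data.

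Named were all members, *Cd247*, *Trac*, *Trbc1*, and *Trbc2*, up to 5 called genes per comparison from 6 T cell lists by smallest adjusted p, the 3 most abundant genes of each other list, and the 12 genes most like the members. *Lck*, *Tox* in the PP treatment comparison, and *Cd8b1* were added after their values were seen. Some genes that the rule named are not reported here. The members and lists were chosen with earlier results of these data known. P-values set a group difference against the spread between these libraries, as estimated with information shared over genes. No replicates were identical, and all pairs differed by more than counting error.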

Additional observations from a re-analysis of the deposited data

Results flagged for a closer look

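No member differed between the tissues in its treatment effect past the threshold. Some genes of the 6 T cell lists did so in the interaction (edgeR, adjusted p under 0.05), each with a change in PPs below that in spleen. For OVA NPs, 1 of 6 tested transcription factors and 1 of 4 follicular helper genes were called, against 4.42% of all genes. For soluble OVA, 2 of 6 transcription factors were called, against 6.84% of all genes. So was 1 gene each of 17 receptor and signaling, 4 follicular helper, 6 regulatory T, and 7 innate lymphoid genes. The genes below were named because they were called. *Tox* and *Tox2*, which are also expressed outside the T lineage, differed by -2.61 (adjusted p = 0.00346) and -2.55 (adjusted p = 0.0338) on the log2 scale for OVA NP against PBS, and by -2.87 (adjusted p = 2.98e-04) and -3.05 (adjusted p = 0.00171) for soluble OVA against PBS. The *Tox2* call for OVA NPs was lost in 8 of 12 fits that left out 1 library, all but those without replicate 2 of either PP group or replicate 3 of either spleen group, and also without a filter and with replicate number as a block (log2 values from -3.70 to -2.01, adjusted p up to 0.113). In spleen, *Tox* rose by 2.53 with OVA NPs and by 3.42 with soluble OVA. Of 7 germinal center B genes, 6 and 7 were called higher in these spleen comparisons, against 1221 of 14200 and 1479 of 14128 genes. In the interactions 6 and 5 of the 7 were called lower, against 589 of 16619 and 838 of 16541 genes. Which cells made *Tox* and *Tox2* was not tested. *Satb1*, *Kit*, and *Cd2* differed by -1.13, -0.84, and -0.76 for soluble OVA against PBS. *Cd2* stood at 131 to 173 CPM in the spleen libraries, where the CD3 genes summed to 1.34 to 4.21 CPM. Which cells made *Cd2* was not tested. The *Cd2* call was lost in 6 of 12 fits that left out 1 library, those without replicate 2 or 3 of PP PBS, replicate 3 of PP soluble OVA, replicate 1 or 3 of spleen PBS, or replicate 1 of spleen soluble OVA (adjusted p up to 0.0948), and those of *Satb1* and *Kit* in 0. Groups of 3 libraries are too small for a test of single outlying libraries.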

How the results depend on the processing

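The 8 members called for OVA NP against soluble OVA in PPs were 7 to 8 when 1 library was left out, and the 2 called for soluble OVA against PBS were 1 to 3. With replicate number as a block, these counts were 6, without *Cd4* and *Icos*, and 1, *Il7r*. Same-numbered libraries did not deviate together in all 3 numbers of any comparison (r from -0.379 to 0.235), so the numbers were not taken as pairs. For soluble OVA against PBS, DESeq2, DESeq2 size factors, and a fit of all 18 libraries gave 1 each, and no filter gave 4. For OVA NP against PBS in PPs, 0 members became 1 with DESeq2 and 3 without a filter. For PP against spleen, the counts were 7, 6, and 10 under PBS, soluble OVA, and OVA NPs. They became 3, 1, and 5 with at least 10 counts in every library, where the members low in spleen were not tested. When 1 library was left out, they were 7 to 9, 6 to 9, and 10.

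Of 167 log2 fold changes, 17 changed sign under some alternative, none of them called. When 1 library was left out, spleen values for OVA NP against PBS ran from -0.91 to 0.14 for *Cd3e* and from -0.27 to 0.19 for *Cd3g*, which was -0.0028 without a filter. For soluble OVA against PBS in spleen they ran from -1.10 to 0.35 for *Cd3e*, -0.11 to 0.17 for *Il7r*, -0.012 to 0.61 for *Thy1*, and -0.13 to 1.14 for *Cd247*. For OVA NP against soluble OVA in spleen they ran from -0.82 to 0.88 for *Cd3e* and -0.22 to 0.090 for *Cd28*. In PPs they ran from -0.19 to 0.47 for *Cd3d* and -0.24 to 0.78 for *Cd4* (soluble OVA against PBS), and from -0.16 to 0.20 for *Cd28* (OVA NP against soluble OVA). The interaction values ran from -0.56 to 0.055 for *Cd28* and -1.22 to 0.93 for *Icos* with OVA NPs. With soluble OVA they ran from -1.20 to 0.23 for *Cd3e*, -1.30 to 0.69 for *Cd4* (0.021 with the block), -0.052 to 3.37 for *Cd8a*, and -0.56 to 0.21 for *Trbc1*. The cause of these changes was not tested.

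Over all genes, OVA NP against PBS in PPs had 0 calls, and 150 with DESeq2, 24 with all 18 libraries, and 146 without a filter. OVA NP against soluble OVA in spleen had 33, and 83, 14, and 230 in the same order. With the block, the 4697 calls for OVA NP against soluble OVA in PPs became 3119. Interaction calls of 734 for OVA NPs were 1253 with DESeq2 and 429 with the block, and 1131 for soluble OVA were 1849 with DESeq2. Spleen counts of 0 to 7 per library limit what can be said of *Cd8a*, *Cd4*, *Icos*, and *Cd3d* there.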

Other observations

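*Cd8b1*, which encodes the second chain of the CD8 coreceptor on most cytotoxic T cells, was read beside *Cd8a* after the values were seen. It held 46, 31, and 20 counts in the PP libraries of OVA NP–treated mice, 15, 6, and 19 with PBS, and 4, 12, and 14 with soluble OVA. *Cd8a* held 121, 97, and 99 counts, 63, 16, and 43 counts, and 36, 27, and 56 counts in the same libraries. The spleen libraries held 0 to 7 counts of *Cd8b1*.

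Several calls of other T cell list genes in spleen did not hold in every alternative fit. *Gzmb*, a granzyme gene, was 0.84 (SE 0.23) higher with OVA NPs and 0.97 (SE 0.23) higher with soluble OVA than with PBS on the log2 scale. Both calls were lost in the fit of all 18 libraries, and that for OVA NPs also without replicate 2 of OVA NP and without replicate 1 or 2 of PBS (adjusted p up to 0.132, edgeR). *Lrrc32* was 1.67 (SE 0.51) higher and *Fyb* 1.07 lower (-1.07, SE 0.29) with soluble OVA, and *Tox* was lower with OVA NPs than with soluble OVA (-0.89, SE 0.16). The *Lrrc32* call was lost without replicate 1 or 2 of PBS or replicate 1 or 3 of soluble OVA (adjusted p up to 0.136), and the *Fyb* call without replicate 1 or 3 of either group and with replicate number as a block (adjusted p up to 0.135). The *Tox* call was lost in 5 of 6 fits that left out 1 library, all but that without replicate 2 of soluble OVA, and in the fit of all 18 libraries and with the block (adjusted p up to 0.274). In PPs, *Lrrc32* was 1.40 (SE 0.15) higher and *Cd2* lower (-0.98, SE 0.15) with soluble OVA than with PBS.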
